A study of Mus musculus with 10 samples.

Results

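The 5 genes described are among the best-known targets of RNA polymerase III (Pol III) that are neither tRNA nor 5S rRNA genes: Rn7sk, Rmrp, Rpph1, the 7SL RNA gene Rn7s1 and the vault RNA gene Vaultrc5. They were taken by position on the mouse build mm9, as every peak in 1 window per gene, whatever its score. The windows were Rn7sk at chr9:78015000-78031000, Rmrp at chr4:43500000-43511000, Rpph1 at chr14:51422000-51432000, 7SL at chr12:70240000-70280000 and Vaultrc5 at chr18:36955000-36967000. All 5 windows held a Pol III peak, and in each window the peaks of all lists merged into 1 locus. They are 5 of the 389 loci into which the 6 Pol III peak lists of the series merged when peaks sharing at least 1 bp were joined. An mm9 annotation was not used here, so the windows rest on their stated positions. The RefSeq gene table of another build, GRCm38.p6, places the 5 genes on the same 5 chromosomes and was used for names and neighbours only.

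The series mapped chromatin binding by immunoprecipitation and sequencing in ES-E14TG2a cells, an established mouse embryonic stem (ES) cell line grown with LIF, and in primary mouse embryonic fibroblasts (MEFs) from E12.5 embryos after 3 to 5 passages. Each cell type had 1 library each for the Pol III subunits POLR3C, POLR3G and POLR3GL (in-house antibodies) and for RNA polymerase II (Pol II, antibody N-20). How many embryos gave the MEFs is not stated, and the ES cells are 1 line. Without an mm9 annotation, the cell types were not checked against their marker genes. With 1 library per antibody and cell type there is no replicate error, and no value below carries a test. The lists held 317, 13 and 243 peaks for POLR3C, POLR3G and POLR3GL in ES cells, 275, 177 and 264 in MEFs, and 32345 and 13306 Pol II peaks in ES cells and MEFs. The read depth behind them is unknown, so a missing call is not evidence that the subunit, or Pol II, was absent.

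Pol III makes short RNAs that are used without translation. 7SK RNA holds the kinase P-TEFb inactive and so restrains Pol II elongation, RMRP and RPPH1 are the RNA parts of the nucleases RNase MRP and RNase P, 7SL RNA is the scaffold of the signal recognition particle, and vault RNA belongs to the vault particle. The genes of 7SK, RMRP and RPPH1 have promoters that lie upstream of the transcribed part and are bound by SNAPc. 7SL and vault RNA genes have control elements inside it, as tRNA genes do, which does not exclude upstream elements. POLR3C, POLR3F and either POLR3G or POLR3GL form the subcomplex of Pol III that acts in initiation, and POLR3G is known to be abundant in pluripotent cells.

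In the MEF lists the 5 genes fell into 2 sorts, called by all 3 subunits or by POLR3C alone. In ES cells Vaultrc5 was called by POLR3C alone, as Rpph1 was. Rn7sk and Rmrp were called by POLR3C and POLR3GL in both cell types and by POLR3G in MEFs. Calls by all 5 lists other than ES POLR3G were common, at 146 of the 389 loci, or 37.5%. Vaultrc5 was called by POLR3C in both cell types and by all 3 subunits in MEFs. Rpph1 was called by POLR3C alone in both cell types, and 7SL by POLR3C alone in MEFs only. By list, POLR3C called 4 of the 5 genes in ES cells and 5 in MEFs, POLR3GL called 2 and 3, and POLR3G called 0 and 3. Over all 389 loci the same lists called 81.5% (ES cells, POLR3C), 70.7% (MEFs, POLR3C), 62.5% (ES cells, POLR3GL), 67.9% (MEFs, POLR3GL), 3.34% (ES cells, POLR3G) and 45.5% (MEFs, POLR3G). No test of the 5 genes against the other loci was made.

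The 5 windows held no ES POLR3G peak (0 of 13). For Rmrp, the nearest of them on the same chromosome was 102517444 bp away, and the chromosomes of the other 4 genes held none. No gene of the group can therefore be compared between POLR3G and POLR3GL in ES cells. None of the 13 ES POLR3G peaks shared a locus with a POLR3C peak or with any MEF Pol III peak. Most of them lay on chromosomes X and Y. The missing ES POLR3G calls are therefore no result about the 5 genes.

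The deposited scores have no stated scale and differ in range between lists, so each score is given with its percentile in its own list, the share of peaks with a lower score plus 50% of those with an equal one. The plot of percentiles by list shows all called peaks of the 5 genes.

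**Figure D1:**
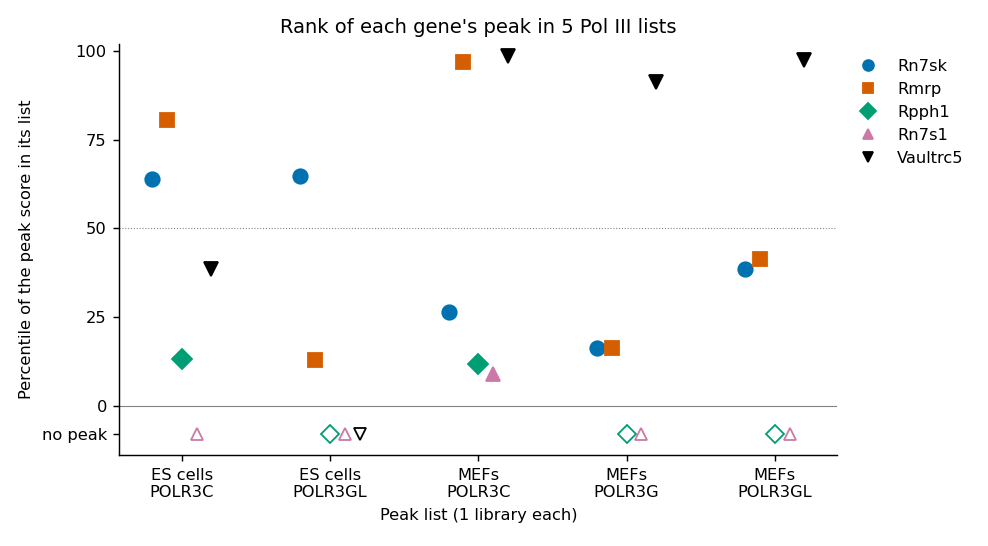
Percentile of the peak score (vertical axis) of each gene in the 5 Pol III lists that called any of them (horizontal axis); filled symbols are called peaks, and open symbols on the lowest line mark genes without a peak in that list. Each symbol is 1 peak of 1 library. Vaultrc5 lies above 91 in the 3 MEF lists and at 38.6 in the ES POLR3C list, while Rmrp is high for POLR3C and lower for POLR3GL and POLR3G.

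Among the genes with promoters bound by SNAPc, Rmrp stood out for the distance between its POLR3C rank and those of the other subunits. Its locus spanned chr4:43505823-43506052. In ES cells the POLR3C peak (chr4:43505828-43506041) scored 2119, rank 62 of 317 and the 80.4th percentile, and the POLR3GL peak (chr4:43505871-43506012) scored 21, rank 211 of 243 and the 13.0th percentile. In MEFs the POLR3C peak (chr4:43505829-43506052) scored 279, rank 9 of 275 and the 96.9th percentile. The MEF POLR3GL peak scored 45 (rank 153 of 264, 41.3rd percentile) and the MEF POLR3G peak scored 18 (rank 146 of 177, 16.4th percentile). Rmrp was therefore in the top 25% of the POLR3C list in both cell types and below the 50th percentile of each POLR3G and POLR3GL list that called it. The ES POLR3GL and MEF POLR3G lists start at 15, so the scores of 21 and 18 lie near the floor. The score of 18 was shared by 6 peaks of the MEF POLR3G list, that of Rn7sk among them.

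To rank both subunits over the same loci, percentiles were also taken among the loci that both lists called. Of the 215 such loci in ES cells, Rmrp ranked 62 for POLR3C and 192 for POLR3GL, percentiles of 71.2 and 10.5. No other of the 215 loci had so large a gap in either direction; the difference for Rmrp was -60.7 percentile points, against a median size of 9.53 points over all 215 loci. In MEFs the difference was -56.3 points over 237 loci (ranks 9 and 140), and 1 locus had a larger gap. For POLR3G against POLR3C in MEFs it was -80.1 points over 161 loci (ranks 7 and 134), again with 1 locus beyond it. Between POLR3G and POLR3GL in MEFs the ranks were 144 and 138 of 173, a difference of -3.47 points, which became -24.9 points with percentiles over each whole list.

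The same scores can be set beside those of other strong POLR3C loci, which restates the gap and is no separate support. All 78 loci in the top 25% of the ES POLR3C list had a POLR3GL peak, with POLR3GL scores of 21 to 60 and a median of 39.5, and Rmrp had the lowest of them. All 69 loci in the top 25% of the MEF POLR3C list had POLR3GL, with scores of 42 to 100 and a median of 66. Of these, 1 scored below the 45 of Rmrp. For POLR3G, 65 of the 69 were called, with scores of 16 to 46 and a median of 29, and 3 scored below the 18 of Rmrp. The centre of the POLR3GL peak of MEFs lay 44 bp on the lower-coordinate side of the POLR3C centre. The median distance over 237 loci was 14 bp, and 57 of them had centres farther apart than Rmrp. In ES cells the 2 centres were 7 bp apart, where the median over 215 loci was 15 bp.

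**Figure D2:**
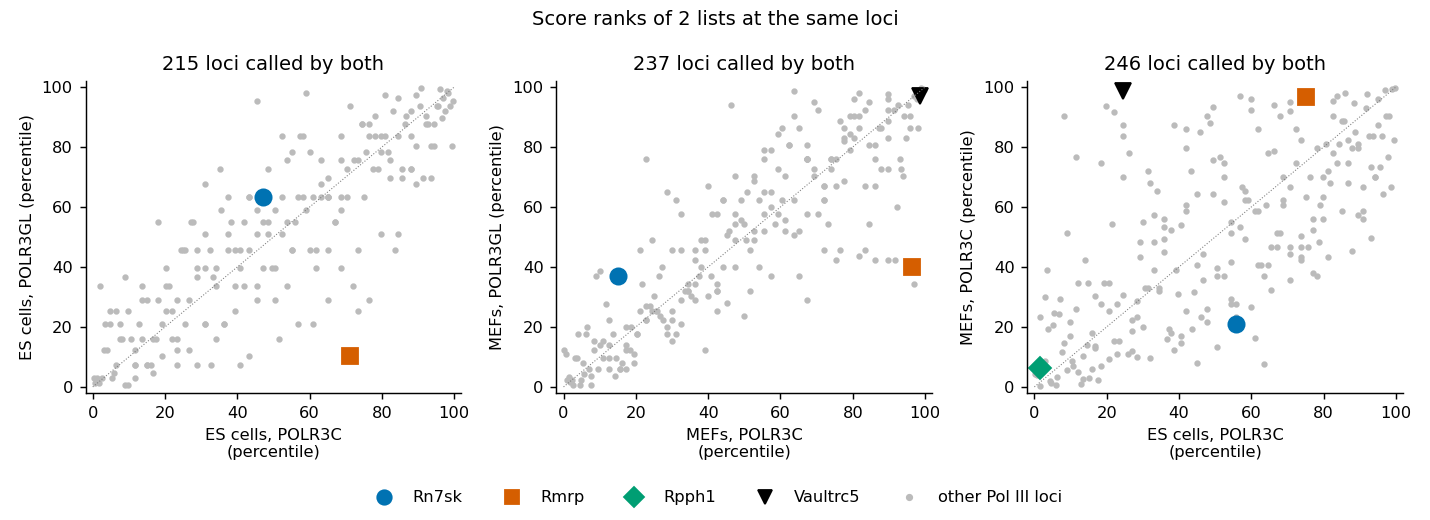
Each panel sets the score percentile in 1 list (horizontal axis) against that in a second list (vertical axis) at the loci that both called: POLR3C and POLR3GL in ES cells (215 loci), the same in MEFs (237 loci), and POLR3C in ES cells and MEFs (246 loci). Grey points are other Pol III loci, coloured symbols the 5 genes where called by both lists, and the dotted line marks equal percentiles. Rmrp lies far below the line in the first 2 panels, and Vaultrc5 far above it in the third.

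Rn7sk had peaks of 5 lists with centres at most 11 bp apart. Its locus spanned chr9:78023047-78023270. In ES cells it scored 1833 for POLR3C (chr9:78023052-78023265, rank 114 of 317, 63.9th percentile) and 34 for POLR3GL (chr9:78023089-78023230, rank 79 of 243, 64.8th percentile). In MEFs it scored 163 for POLR3C (rank 203 of 275, 26.4th percentile), 18 for POLR3G (rank 146 of 177, 16.4th percentile) and 43 for POLR3GL (rank 160 of 264, 38.4th percentile). It thus stood above the 50th percentile of both ES lists and below it in all 3 MEF lists. The POLR3C centres of ES cells and MEFs coincided (0 bp apart), POLR3GL lay 1 bp from POLR3C in ES cells, and in MEFs POLR3G and POLR3GL lay 2 and 11 bp from POLR3C. Over all loci with 1 peak of each list, the medians of these distances were 10, 15, 16 and 14 bp. Centres were farther apart than at Rn7sk at 234 of 246, 200 of 215, 146 of 161 and 130 of 237 loci. The 11 bp was thus an ordinary distance.

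Among the 246 loci called by POLR3C in both cell types, Rn7sk ranked 108 in ES cells and 195 in MEFs, a difference of -35.0 points, and 9 loci had a more negative one. For POLR3GL it ranked 76 and 148 of 224, a difference of -30.6 points, with 28 loci lower. Both subunits therefore placed it lower among shared loci in MEFs, without a replicate to give the error of a rank. Unlike Rmrp, Rn7sk stood higher for POLR3GL than for POLR3C, by 16.3 points over 215 loci in ES cells and by 21.9 points over 237 loci in MEFs. Over each whole list the ES difference was only 0.93 points and the MEF difference 12.1 points.

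Rpph1 was a weak POLR3C site in both cell types. The ES peak (chr14:51427075-51427288) scored 390, rank 274 of 317 and the 13.1st percentile, where the list starts at 260. The MEF peak (chr14:51427008-51427231) scored 91, rank 243 of 275 and the 11.6th percentile, where the list starts at 40. Among loci called in both cell types it stood lower still, at the 1.57th percentile in ES cells and the 6.18th in MEFs. Many other loci of low POLR3C rank also lacked calls of POLR3GL and POLR3G. In the lowest 25% of the ES POLR3C list, 2 of 80 loci had POLR3GL (2.50%, exact Clopper-Pearson 95% interval 0.304 to 8.74%, for counting error over loci only). In the lowest 25% of the MEF list, 32 of 69 had POLR3GL (46.4%, 34.3 to 58.8%) and 2 of 69 had POLR3G (2.90%, 0.353 to 10.1%). Rpph1 had POLR3C in both cell types, which held for 25 of those 80 ES loci and 49 of those 69 MEF loci. Most of the 80 are thus unlike Rpph1 in that call. The ES and MEF centres were 62 bp apart, farther than at most shared loci, where the median distance was 10 bp and 42 of 246 were farther apart. Loci called by POLR3C alone in both cell types made up 18 of the 389, or 4.63%.

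Vaultrc5, a gene with internal control elements, had the widest difference of POLR3C rank between the cell types among the 4 genes called in both. Its locus spanned chr18:36961452-36961675. In MEFs it scored 302 for POLR3C (rank 4 of 275, 98.7th percentile), 77 for POLR3GL (rank 7 of 264, 97.3rd percentile) and 37 for POLR3G (rank 15 of 177, 91.2nd percentile). In ES cells POLR3C scored 1248 (rank 193 of 317, 38.6th percentile, or 24.2nd among loci called in both cell types), and neither POLR3GL nor POLR3G was called. The gene was thus among the strongest sites of all 3 MEF lists and below the middle of the only ES list that called it.

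Of the 246 loci called by POLR3C in both cell types, Vaultrc5 ranked 184 in ES cells and 4 in MEFs. The difference of 74.0 percentile points was exceeded by 1 locus, and the median size over all 246 was 15.1 points. Its missing POLR3GL call in ES cells was one of 23 among the 79 loci between the 25th and 50th percentile of the ES POLR3C list, where 70.9% (59.6 to 80.6%) carried POLR3GL. Seen from the MEF side it was less common: 63 of the 67 loci in the top 25% of the MEF POLR3GL list also had POLR3GL in ES cells, 94.0% (85.4 to 98.3%), and Vaultrc5 was one of the 4 without. Calls by POLR3C in ES cells and by all 3 subunits in MEFs, without POLR3GL in ES cells, were found at 10 of the 389 loci, or 2.57%. In MEFs the POLR3G and POLR3GL centres lay 20 and 26 bp from the POLR3C centre, and the POLR3C centres of the 2 cell types were 3 bp apart. The medians over all loci with 1 peak of each list were 16, 14 and 10 bp.

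The 7SL window held 1 Pol III peak, a MEF POLR3C peak at chr12:70260473-70260696 with a score of 73, rank 251 of 275 and the 8.91st percentile. No ES list had a peak there. In the lowest 25% of the MEF POLR3C list 20 of 69 loci had no ES POLR3C peak, and loci called by MEF POLR3C alone were 17 of the 389, or 4.37%. The RefSeq gene table lists a second 7SL gene, Rn7s2, on the same chromosome. The sources used here do not say how reads that match several copies were placed, so the level at either copy is uncertain.

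The next Pol III peaks on that chromosome, outside the window and picked after their values were seen, were also low in rank. They began 201354 bp away, with ES POLR3C at chr12:70462051-70462264 (score 377, 11.7th percentile), MEF POLR3C at chr12:70462371-70462594 (78, 9.64th percentile) and MEF POLR3GL at chr12:70462401-70462548 (25, 12.3rd percentile). The ES and MEF peaks did not touch, and no gene was assigned to them. ES and MEF Pol II peaks (chr12:70462361-70463057 and chr12:70462363-70463325) covered both MEF peaks.

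Pol II peaks were called at or beside 4 of the 5 genes in both cell types, and at Rmrp in ES cells only. The MEF Pol II list is shorter (13306 against 32345 peaks), so the missing call is no evidence of a difference at Rmrp. With an overlap of at least 1 bp, Pol II covered 3 of the 4 genes called by Pol III in ES cells and 2 of the 5 called in MEFs. Over all loci called in the same cell type, the share was 31.4% of 350 in ES cells and 30.4% of 306 in MEFs. Within 1 kb it was 4 of 4 and 4 of 5, against 38.6% and 37.9%. None of the 5 genes lay in a cluster of 8 or more loci spaced at most 200 kb apart, and loci outside clusters had Pol II more often, at 44.0% of 193 in ES cells and 50.3% of 147 in MEFs by overlap and 51.8% and 61.9% within 1 kb. No test of this difference was made.

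**Figure D3:**
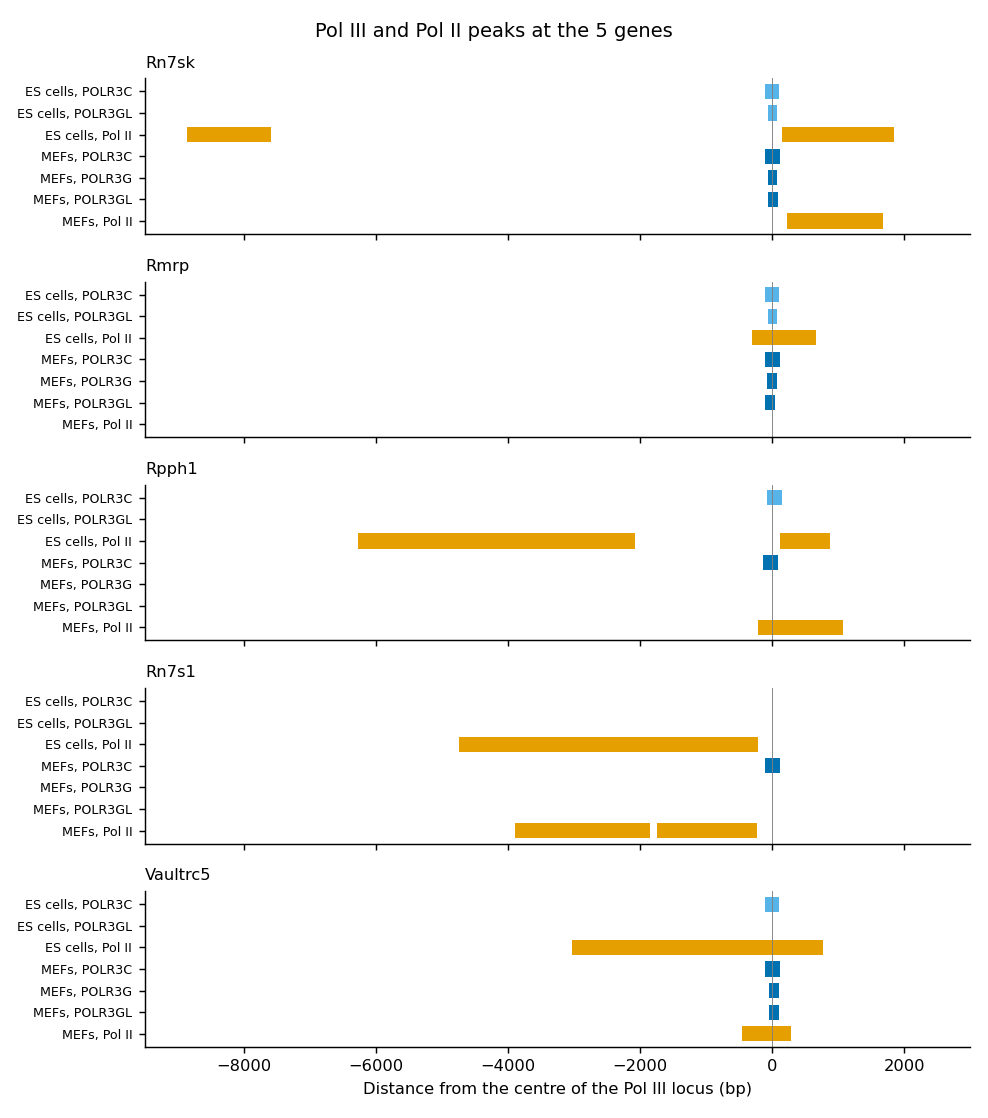
Position of every peak in the 5 windows relative to the centre of the Pol III locus of each gene (horizontal axis, bp), with 1 row per library (ES POLR3G, which had no peak there, is left out). Light blue bars are ES Pol III peaks, dark blue bars MEF Pol III peaks and orange bars Pol II peaks. At Rn7sk and Rn7s1 the Pol II peaks start or end beside the Pol III peak without touching it, and at Rmrp the MEF Pol II row is empty.

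At Rn7sk, Pol II began just past the Pol III peak in both cell types. The ES Pol II peak ran from 78023311 to 78024999 (score 581.47, 88.3rd percentile of its list) and started 40 bp from the Pol III locus. The MEF peak ran from 78023375 to 78024841 (score 510.43, 94.9th percentile) and started 104 bp from it. Both lay on the higher-coordinate side, where the RefSeq table lists the long non-coding RNA gene C920006O11Rik as the next gene. A second ES Pol II peak (score 178.44) lay 7486 bp away on the other side.

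At 7SL the Pol II peaks lay on the lower-coordinate side and also stopped short of the Pol III peak. The ES Pol II peak from 70255843 to 70260371 had a score of 2282.69, the 98.1st percentile of 32345 peaks, and ended 101 bp before the locus, although no ES Pol III list called it. In MEFs a peak from 70258835 to 70260352 scored 211.97 (69.7th percentile) and ended 120 bp before it, next to a weaker one from 70256684 to 70258737 (59.12, 11.5th percentile). The ribosomal protein gene Rps29 is the neighbour on the lower side in the RefSeq table. A Pol II peak that came within 200 bp without overlap was seen at 3.14% of the loci called in ES cells and 2.29% of those called in MEFs. The 200 bp limit was not in the plan. The MEF share includes Rn7sk and 7SL themselves, and the ES share includes Rn7sk but not 7SL, which was not called there.

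At Rpph1 the 2 cell types differed in where the Pol II peak began. In ES cells it ran from 51427269 to 51428020 (score 274.52, 74.9th percentile) and shared 20 bp, or 7.12%, with the Pol III locus. In MEFs it ran from 51426938 to 51428211 (454.22, 93.0th percentile) and covered the whole locus. The neighbour on the higher-coordinate side is Parp2, which encodes a poly(ADP-ribose) polymerase. Another ES peak, from 51420877 to 51425065 (926.42, 93.2nd percentile), ended 1942 bp from the locus and had no MEF partner in the window.

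At Vaultrc5, Pol II covered the whole Pol III locus in both cell types. The ES peak was 3797 bp wide, from 36958531 to 36962327, with a score of 1124.77 (94.7th percentile), and the MEF peak was 742 bp wide, from 36961108 to 36961849, with 189.77 (64.9th percentile). The Pol II percentile was thus higher in ES cells, and that of POLR3C, the only subunit called there in both cell types, was higher in MEFs. The 2 Pol II lists differ in length, so their percentiles are set side by side only. The zinc finger gene Zmat2 is the neighbour on the lower-coordinate side.

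At Rmrp, the ES Pol II peak from 43505627 to 43506604 covered the locus with a score of 99.43, the 41.5th percentile and the lowest of the Pol II peaks at the 5 genes in ES cells. In MEFs the nearest Pol II peak was 49857 bp away, and 29 of the 306 loci called in MEFs were farther from one. The Pol III peaks at Rmrp, with POLR3C at rank 9 of 275 in MEFs, were therefore called without a Pol II peak in the MEF list. In ES cells 18932 of the 32345 Pol II peaks scored above the one at Rmrp, more than the 13306 peaks of the whole MEF list. The missing MEF call is thus no evidence that Pol II was absent or differed between the cell types. The protein-coding neighbour on the higher-coordinate side is Ccdc107.

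**Figure D4:**
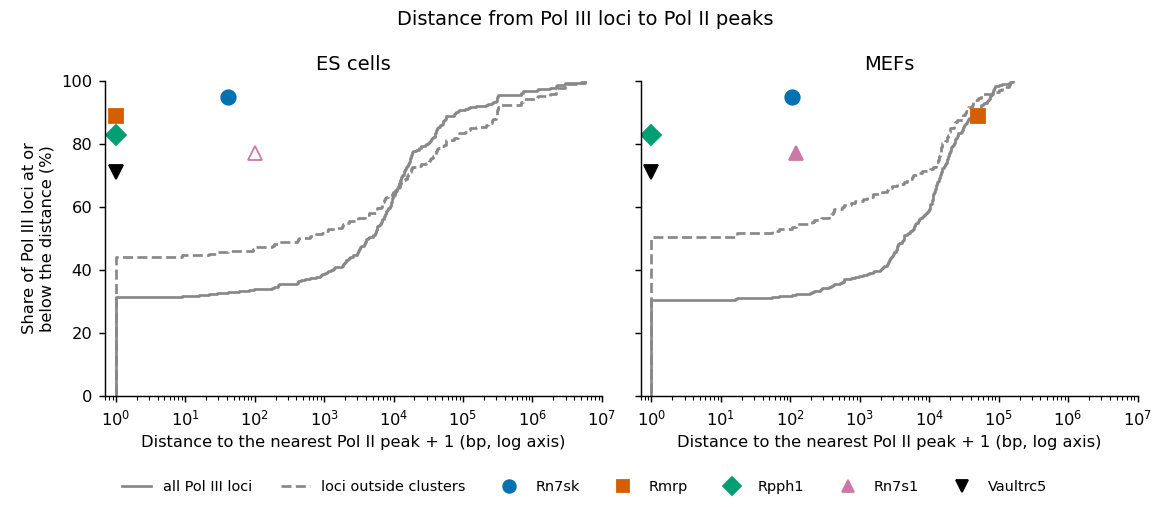
Cumulative share of Pol III loci (vertical axis, %) by distance to the nearest Pol II peak plus 1 bp (horizontal axis, log scale), for all loci called in ES cells (left) or MEFs (right) and, dashed, for those outside clusters. Symbols mark the distance of each of the 5 genes and are spread vertically only to keep them apart; the open triangle is Rn7s1, which had no Pol III peak in ES cells. All 5 lie within 101 bp of Pol II in ES cells, and Rmrp lies 49857 bp away in MEFs.

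Pol II peaks within 1 kb of the 5 genes ranked at the 41.5th to 98.1st percentile in ES cells (5 peaks, median 88.3) and at the 64.9th to 94.9th in MEFs (4 peaks, median 81.4). The 98.1 belongs to Rn7s1, which no ES Pol III list called. The 4 genes called in ES cells had 41.5, 74.9, 88.3 and 94.7. At the other loci outside clusters the medians were 65.5 (84 peaks) and 63.8 (72 peaks), with ranges of 7.06 to 98.7 and 3.24 to 96.7. The values of the 5 genes lie within those ranges.

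For each gene, the 2 other Pol III loci with the most similar percentiles over the 5 lists other than ES POLR3G were found by Euclidean distance, an uncalled list counting as 0. Rpph1 and Rn7s1 had close matches. For Rpph1 these were chr3:96213938-96214178 (distance of 2 points, scores of 390 and 78 for POLR3C in ES cells and MEFs) and chr8:113522030-113522253 (2.45 points, 403 and 103). For Rn7s1 they were chr6:125363701-125363924 (0.36 points) and chr7:152097025-152097248 (0.73 points), each called by MEF POLR3C alone. A small distance is easily reached where 1 or 2 lists made a call.

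The other 3 genes were less well matched. For Rn7sk the nearest loci were chr12:53704655-53704941 (23.7 points), called by the same 5 lists, and chr6:128788354-128788577 (23.8 points), called by all of them but MEF POLR3G. For Vaultrc5 the nearest was chr19:3576223-3576448 (30.6 points), with the same ES POLR3C score of 1248 but an ES POLR3GL peak of 22, followed by chr1:172974994-172975217 (39.5 points), which had no ES peak. Rmrp was the farthest from its nearest match, chr7:128062160-128062409, at 36.0 points, which scored 1547 and 255 for POLR3C and 22 and 46 for POLR3GL in ES cells and MEFs and had no POLR3G peak, and then chr1:172963955-172964269 at 40.7 points.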

How the data were processed

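Peak lists of 8 libraries (3 Pol III subunits and Pol II in each cell type) entered the work, and the 2 inputs did not. Per the submitters' processing notes, CASAVA 1.8, Bowtie, SAMtools and HOMER were used with the build mm9; the sources used here do not give the calling threshold, the control, the read depth or any pooling. Each peak has 1 score deposited by the authors, a whole number in the Pol III lists and a value of at least 50 in the Pol II lists, of no stated scale, so that scores were only ranked within a list. Pol III peaks have 1 width per list (142 to 224 bp), and Pol II peaks are named as MACS peaks. Starts were read as 0-based and printed 1-based.

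Pol III peaks sharing at least 1 bp were merged into loci. Percentiles are mid-ranks, and intervals are exact Clopper-Pearson 95% intervals over loci, for counting error only. No test was made with 1 library per group. Overlap and ranking were tested on simulated data. The genes, windows and comparison groups were chosen with earlier results of these data known. The text names the 5 genes, the Pol III and Pol II peaks in their windows or nearest to them, their RefSeq neighbours and the 2 most similar loci of each. Percentiles among loci that both lists call were added after seeing the data. The RefSeq promoter table matched 0 of the 5 genes, so the planned motif search was not run. Python 3.11.15, numpy 2.4.6, scipy 1.17.1, pandas 2.3.3 and matplotlib 3.10.9 were used.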

Additional observations from a re-analysis of the deposited data

How the results depend on the processing

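The alternatives were peaks with centres within 1 kb of the locus, a 50% overlap, peaks widened by 500 bp, only peaks at or above the list median, lists without chromosomes X, Y and M, ties counted in full, percentiles among loci called in both cell types, and Pol II within 1 or 5 kb or above its median. Only peaks at or above the list median left 2 of the 5 genes for POLR3C in ES cells, 1 for POLR3GL in ES cells, 2 for POLR3C in MEFs, and 1 each for POLR3G and POLR3GL in MEFs. The number of genes with Pol II in MEFs was 4 within 1 kb and 4 within 5 kb. Among loci called in both cell types, the median ES POLR3C percentile of the called genes was 39.8, against 51.3 over the whole list. By gene, it was 1.57 for Rpph1 (13.1 over the whole list), 24.2 for Vaultrc5 (38.6), 55.3 for Rn7sk (63.9) and 75.6 for Rmrp (80.4), and in the MEF POLR3C list it was 6.18 for Rpph1 (11.6) and 20.5 for Rn7sk (26.4). The other 36 alternative values of the counts and medians stayed within 1.5 times of a count or inside the 95% interval of a percentile. Over each whole list, instead of the loci that both lists call, 3 differences turned sign: for Rn7sk in MEFs, POLR3G minus POLR3C was -9.98 points (14.3 among shared loci) and POLR3G minus POLR3GL was -22.1 points (0.29), and for Rpph1, POLR3C in MEFs minus ES cells was -1.46 points (4.67). The gaps at Rmrp and the difference at Vaultrc5 kept their sign, at -67.5, -55.6 and -80.5 points for Rmrp and 60.1 for Vaultrc5, and POLR3G minus POLR3GL at Rmrp in MEFs moved from -3.47 to -24.9 points. The cause of these shifts was not tested beyond the change of reference loci. Unknown read depth limits every missing call, and no library could be left out with 1 per group.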
